A study of Mus musculus with 8 samples.

Results

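Isolated H3ac regions that had no peak after CuNZ@Gel are described here. H3ac is acetylated histone H3, and the cells were RAW 264.7, a mouse macrophage-like line. Both groups were exposed for 48 h per the labels, to Gel or to CuNZ@Gel, and each had 2 immunoprecipitated libraries. The shared treatment text names extracts of CuNZ@Gel alone, so the Gel group is known from its treatment label, and no label says whether replicate libraries stem from independent cultures. The series title speaks of a sprayable nanozyme hydrogel for diabetic wounds that acts on inflammation. All regions are on mouse build GRCm39.

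Peaks of the 4 library lists were joined into 81544 regions wherever 1 bp or more was shared. A region was called lost when it had peaks in both Gel libraries and in neither CuNZ@Gel library, and retained when it had peaks in all 4 libraries. Both Gel libraries had a peak in 39317 regions, of which 9781 were lost, or 24.9%. The 1185 lost regions described below lay more than 50 kb, edge to edge, from each of the 21909 retained regions, and made up 12.1% of the lost regions. The other 8596 lost regions lay nearer. Without Gel replicate 1 or 2 the same rule gave 3624 or 3265 members, since a lone library counts its unshared peaks. The members were chosen by peak presence in the 4 libraries, so their presence in Gel and absence in CuNZ@Gel is a description and carries no test. Lost means that no peak was listed. It does not mean that acetylation was absent.

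Acetylation of the histone H3 tail loosens the hold of nucleosomes on DNA and is read by bromodomain proteins. It marks active promoters, which carry broad and strong H3ac, and active enhancers, which are often narrower and can lie far from any promoter. In macrophages, inflammatory stimuli and histone deacetylases shift this mark at enhancers of cytokine and receptor genes. Gene names are not part of the lists, and neither a genome nor an annotation of their build was used here, so the members are named by position, the cell line was not checked against marker genes and no sequence is shown.

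The libraries differed in the background solved from their lists, used below as a stand-in for depth because no read totals are listed. This difference may bear on every count below. The background of a list, solved from the fold and p of its peaks, was commonly 4.62 fragments in Gel replicate 1, 4.28 in Gel replicate 2, 3.45 in CuNZ@Gel replicate 1 and 2.46 in CuNZ@Gel replicate 2. At this background the weakest listed peaks had 13 and 12 summit fragments in Gel, against 11 and 9 in CuNZ@Gel. The lowest fold enrichment listed at this background was 2.49 and 2.46 in Gel, against 2.70 and 2.89 in CuNZ@Gel. Fold enrichment here is the authors' ratio of summit signal to local background, and a CuNZ@Gel list needed a higher one.

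Most of the isolated lost regions were weak and narrow in Gel. Their median fold, taken as the highest peak of each library and averaged over the 2 Gel libraries, was 3.48, with quartiles of 3.16 and 3.93 and a range from 2.16 to 9.96. Of the 1185, 923 (77.9%) had a mean fold under 4 and 37 (3.12%) a fold over 5. The median summit held 19 fragments in Gel replicate 1 and 18 in Gel replicate 2. Merged width ranged from 175 to 1987 bp with a median of 441 bp, against 1101 bp for the 2982 regions that were as isolated but had peaks in all 4 libraries. The latter width joins peaks of 4 lists and the former of 2. Counting Gel peaks alone, the lost regions had medians of 321 and 326 bp covered in Gel replicates 1 and 2, against 996 and 994 bp. The median fold of those isolated retained regions was 7.52. At like fold the covered widths lay closer, but the isolated lost regions stayed narrower. In the weakest of 10 groups of Gel fold, peaks in Gel covered a median of 278.5 bp of the isolated lost and 346.5 bp of the isolated retained regions. In group 3 they covered 354.5 and 484 bp, and in group 6 426.5 and 680 bp.

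The isolated lost regions resembled the lost regions near retained ones in strength. The 8596 nearer lost regions had a median fold of 3.43 and a median width of 468 bp, and 275 of them (3.20%) had a fold over 5. Both Gel libraries gave similar values for the isolated ones, with medians of 3.496 and 3.51, and 589 of 1185 had the higher fold in Gel replicate 1. The higher fold was more than 1.5 times the lower in 67 regions, and at most 2.19 times. The main summits of the 2 Gel libraries lay a median of 74 bp apart, and within 200 bp of each other in 83.0% of the isolated and 76.5% of the nearer lost regions. The rule required a peak in both Gel libraries, so the likeness of their folds and summits is partly set by the choice of regions. Local background exceeded 1.5 times the library background in either Gel library at 33 of the 1185.

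**Figure D1:**
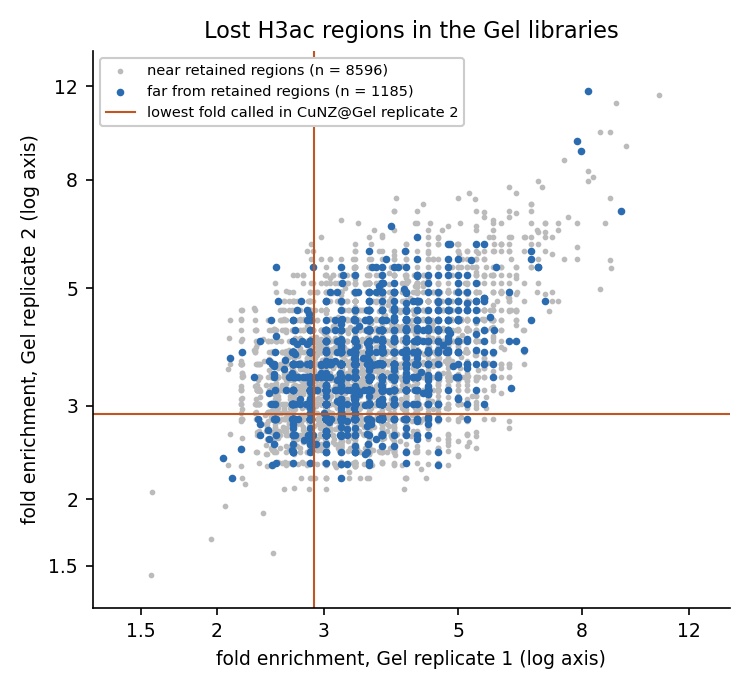
Fold enrichment of the lost regions in Gel replicate 1 (x axis) and Gel replicate 2 (y axis), both on log axes; blue points are the 1185 isolated regions, grey points the 8596 nearer ones. The orange lines mark 2.89, the lowest fold listed at the common background of CuNZ@Gel replicate 2, and the isolated points spread over the same range as the grey ones, with 4 of them at a mean fold above 8.

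Set against the limits of the CuNZ@Gel lists, 1011 of the 1185 had folds in both Gel libraries at or above the lowest one listed in CuNZ@Gel replicate 1. For CuNZ@Gel replicate 2 the number was 842. Fragments and background of each Gel summit were then scaled to the background of a CuNZ@Gel library and held to the lowest −log10 p of its list. At the level of CuNZ@Gel replicate 1, 1040 regions (87.8%) stayed callable in both Gel libraries, and at that of CuNZ@Gel replicate 2, 849 (71.6%). The margin was small: in 47 regions both scaled summits reached at least 1.5 times the 9 fragments of the weakest peaks of CuNZ@Gel replicate 2, in 7 they reached at least 2 times, and in 0 at least 3 times. At the level of CuNZ@Gel replicate 2, 69.2% of the nearer lost regions stayed callable. The share there was 88.2% of isolated regions kept in 1 CuNZ@Gel library and 97.5% of those kept in both. Members were thus callable less often than isolated regions that were kept. Of all 39317 regions of both Gel libraries, 37495 stayed callable at the level of CuNZ@Gel replicate 1 and 34834 at that of replicate 2. How far depth set the absence of a peak at any single member was not tested.

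The strongest isolated lost region lay on chromosome 8 from 38754922 to 38755174. Its fold was 8.19 in Gel replicate 1 and 11.7 in Gel replicate 2 (9.96 ± 2.50, SD, n = 2), with 45 and 61 summit fragments. Peaks covered 243 and 239 bp there, and the 2 summits lay 14 bp apart. The nearest retained region was 388 kb away. Scaled to CuNZ@Gel replicate 2, its summits would hold 24.0 and 35.0 fragments.

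A narrow strong region of the same kind lay on chromosome 12 from 6621125 to 6621321. It had folds of 9.26 and 7.002 in Gel replicates 1 and 2 (8.13 ± 1.60, SD, n = 2), 191 and 190 bp under peaks and summits 4 bp apart. The nearest retained region was 1348 kb away. The fifth strongest, on chromosome 9 from 62353537 to 62353758, was also narrow, with 222 and 188 bp covered and folds of 6.59 and 5.87. Of the 10 strongest, 3 were narrower than 300 bp, as were 193 (16.3%) of all 1185.

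A broader isolated region stood on chromosome 5 from 81779772 to 81780763. Its fold was 7.98 and 9.08 in Gel replicates 1 and 2 (8.53 ± 0.782, SD, n = 2), with 50 and 47 summit fragments and 921 and 884 bp under peaks. It lay 1601 kb from the nearest retained region, and the nearest peaks of any kind in CuNZ@Gel replicates 1 and 2 were 925 and 1601 kb away. Scaled to CuNZ@Gel replicate 2, its summits would hold 26.6 and 27.0 fragments. It was the one member among both the 10 strongest and the 5 with most covered bases.

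The second strongest lay on chromosome 10 from 30598923 to 30599369, with folds of 7.84 and 9.46 (8.65 ± 1.15, SD, n = 2) but 251 bp covered in Gel replicate 1 against 447 bp in Gel replicate 2. A step in strength followed, since the remaining 6 of the 10 strongest had mean folds between 5.79 and 6.23, counting the chromosome 9 region. A pair lay on chromosome 13: the region from 95004841 to 95005908 showed folds of 6.59 and 5.68 and the one from 100152302 to 100152749 had 6.95 and 4.73. The latter lay 0.228 kb from a peak of CuNZ@Gel replicate 2 that did not overlap it. The others were on chromosome 8 from 3271256, chromosome 19 from 23735765 and chromosome 11 from 84241930, with folds of 5.49 to 6.77.

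The widest isolated lost region lay on chromosome 12 from 103302906 to 103304892, with 1399 and 1969 bp under peaks in Gel replicates 1 and 2 (1684 ± 403 bp, SD, n = 2) and folds of 5.16 and 4.54. It was also one of the regions just inside the distance limit, at 50.046 kb from a retained region. The next, on chromosome 19 from 46850924 to 46852058, had 1127 and 1129 bp, and a peak of CuNZ@Gel replicate 2 lay 0.315 kb from it. A chromosome 4 region from 108763132 to 108764358 carried 1227 and 954 bp, and a chromosome 1 region from 61415266 to 61416350 carried 916 and 851 bp. Absence of an overlapping peak thus went with a CuNZ@Gel peak close by in some members and with none within 57.6 kb, as for the second strongest, in others.

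The members farthest from retained regions lay in long stretches without them. The farthest, on chromosome X from 120353675 to 120354501, was 4778 kb from a retained region and had folds of 4.27 and 3.69, with 827 and 359 bp covered. A peak of CuNZ@Gel replicate 1 nevertheless lay 0.636 kb from it. On chromosome 15, regions starting at 17597553, 17098840 and 21537404 were 4359, 3860 and 3731 kb from a retained region. Their mean folds were 4.68, 2.94 and 2.94, and the latter pair would not stay callable at the depth of either CuNZ@Gel library. The fifth, on chromosome 6 from 76977202 to 76977594, was 3708 kb away and had folds of 3.74 and 4.16.

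Regions nearest to the distance limit spanned similar folds on both sides of it. Just inside lay the regions on chromosome 9 from 74809477, on chromosome 14 from 99194440 and the widest one on chromosome 12, at 50.011, 50.032 and 50.046 kb, with mean folds of 3.19, 3.32 and 4.85. Just outside lay regions on chromosome 4 from 143015401, on chromosome 3 from 116123604 and on chromosome 1 from 169744420, at 49.969, 49.833 and 49.782 kb, with mean folds of 4.61, 3.64 and 3.31. The median distance of the 1185 was 87.2 kb. It was over 100 kb in 493, over 250 kb in 151 and over 1000 kb in 20.

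Most isolated lost regions stood alone. Joined wherever neighbours lay within 50 kb, they formed 1010 runs, of which 866 held 1 member, 122 held 2 and 22 held 3 or more. The longest runs held 5 members. One spanned chromosome 7 from 82369977 to 82461188, where the Gel libraries had 6 and 5 peaks and the CuNZ@Gel libraries 0 and 0. Its 5 regions had folds of 3.38, 4.45, 2.85, 3.92 and 2.67 in Gel replicate 1 and 3.60, 4.35, 2.35, 3.60 and 3.22 in Gel replicate 2, from first to last. All of them were weak, and the run combined 1787 and 2195 bp of peaks over 91212 bp.

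The other run of 5 spanned chromosome 10 from 61103112 to 61166454, with folds of 2.49 to 4.10 in Gel replicate 1 and 2.65 to 5.30 in Gel replicate 2. The CuNZ@Gel libraries had 1 and 2 peaks within it. Of the 5 runs of 4 members, the one with the highest fold spanned chromosome 4 from 106827788 to 106849148, or 21361 bp, the densest of these 3. Its strongest region, from 106845004 to 106845282, had folds of 4.99 and 5.11. CuNZ@Gel replicate 1 had no peak in that span and CuNZ@Gel replicate 2 had 1.

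**Figure D2:**
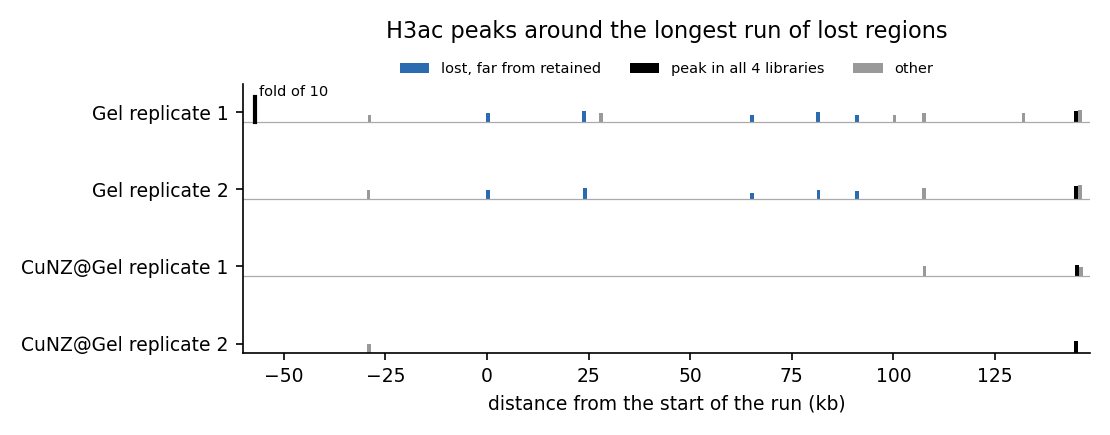
Peaks of each library around the chromosome 7 run, placed by distance in kb from its start; bar height is fold enrichment, with a scale bar for a fold of 10, and narrow peaks are widened to be visible. The 5 blue lost regions appear in both Gel rows, neither CuNZ@Gel row has a peak between 0 kb and the end of the run, and the black peaks at the right are retained.

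Many members nevertheless had other H3ac peaks within 50 kb. Of the 1185, 566 (47.8%) had another region of both Gel libraries within that distance and 401 (33.8%) another lost region. A peak of at least 1 CuNZ@Gel library lay within 50 kb of 636 (53.7%), within 10 kb of 288 (24.3%) and within 1 kb of 88 (7.43%). Within 1 kb, CuNZ@Gel replicate 1 had a peak beside 53 and CuNZ@Gel replicate 2 beside 42. Isolation from retained regions is therefore not isolation from all acetylation.

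The territory far from retained regions was large and sparsely marked. Between the first and last retained region of each chromosome, 1712 Mb of 2555 Mb (67.0%) lay over 50 kb from any retained region, in 3999 stretches. These held 0.688 isolated lost regions per Mb, against 10.2 lost regions per Mb in the other 842 Mb. Regions of both Gel libraries that were not retained, lost or kept in 1 CuNZ@Gel library, had densities of 1.29 and 18.0 per Mb. The contrast was of similar size, but this set includes the lost regions. Far regions kept in 1 CuNZ@Gel library numbered 1040, close to the 1185 members, but their density per Mb was not computed alone. The contrast was therefore not shown to be particular to the lost regions. Members occurred in 872 stretches (21.8%), with 1 member in 647 and at most 6 in one. Stretches with a member had a median distance of 344 kb between the flanking retained regions, and those without one 203 kb. A longer stretch has more room for any region, so this difference is partly set by length. Stretches holding other far regions were not compared.

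By chromosome, the isolated lost regions numbered from 27 on X to 104 on chromosome 1, with none on Y, where 4 regions had peaks in both Gel libraries. They were 27.3% of the 99 lost regions on X, where 85.6% of the span was far from retained regions, and 6.49% of the 894 on chromosome 11, where 51.3% was. Chromosome 17 held most per Mb of far territory, 1.13, and X fewest among the chromosomes with members, 0.195. The share lost among far regions was 17.8% on chromosome 18, where the fold of its regions would give 28.4% from nearer regions, and 28.8% on chromosome 17, where it would give 28.5%.

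Whether isolation went with more frequent loss was asked among all regions with peaks in both Gel libraries, each measured to the nearest other retained region. The share lost was slightly lower among isolated regions than among others of like Gel fold. Of 5207 far regions, 1185 were lost (22.8%, 95% Wilson interval 21.6 to 23.9%, counting error only), 1040 had a peak in 1 CuNZ@Gel library and 2982 in both. Of 34110 nearer regions, 25.2% were lost. With the nearer regions weighted to the fold of the far ones in 10 groups of equal size, 24.8% were lost, so the far regions lay 2.09 percentage points lower, or 1185 against 1294 regions. The size of the gap changed with the processing: it was -0.990 points with lists of equal length (9.997% against 10.99%) and -4.88 points with covered width in place of fold as the measure of strength (22.8% against 27.6%).

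Both CuNZ@Gel libraries gave this order. CuNZ@Gel replicate 1 lacked 28.5% of the far regions against 30.7% of nearer ones at like fold, a difference of -2.22 points, and CuNZ@Gel replicate 2 lacked 37.0% against 38.8%, a difference of -1.82 points. Over all 39317 regions these libraries lacked 30.6% and 38.5%. The gap lay mostly among weak regions. In the weakest group, with mean folds up to 3.19, 66.3% of 466 far and 73.1% of 3466 nearer regions were lost. In group 3 the shares were 43.4% and 48.0%, and in group 5, with a median fold of 4.497, they were 22.2% and 22.3%. From group 7 upwards, with folds over 5.74, at most 2.43% were lost at either position, and of the 1033 far regions in the strongest 2 groups 0 were, with upper 95% Wilson limits of 0.819% in group 9 and 0.672% in group 10. Regions are not replicates and the design has 2 libraries a group, so no test of this difference was made.

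**Figure D3:**
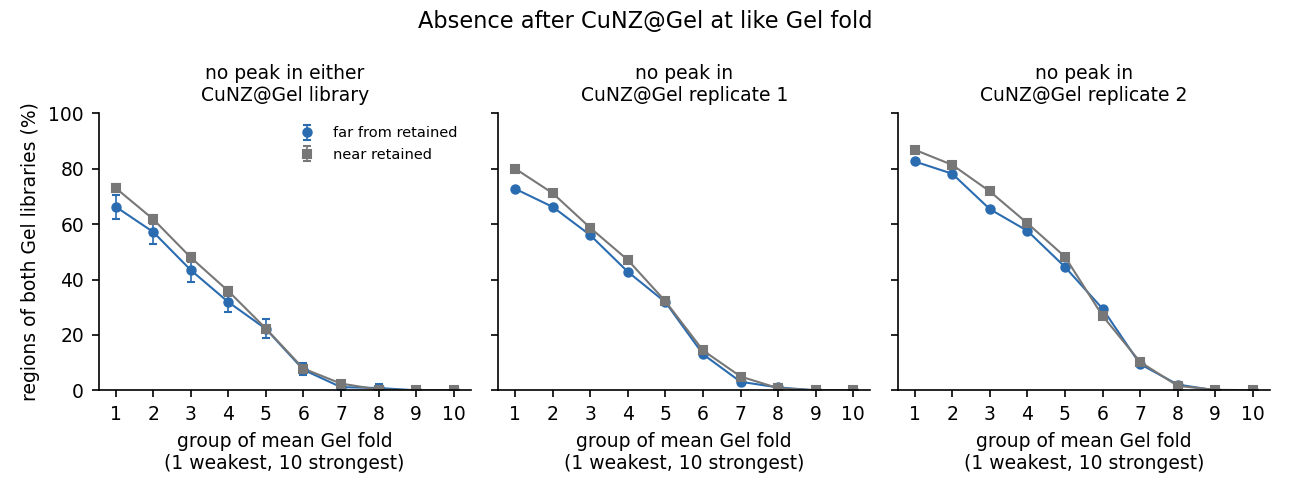
Share of the regions of both Gel libraries (y axis, %) with no peak in either CuNZ@Gel library (left, with 95% Wilson intervals) or in each CuNZ@Gel library (middle and right), in 10 groups of mean Gel fold from weakest to strongest (x axis). Far regions (blue) lie below nearer ones (grey) in the weak groups, 66.3% against 73.1% in group 1, and in the left panel the lines meet from group 5 onwards.

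Along the distance scale the share was lowest beyond 100 kb when each fold group had equal weight. With this weighting, 24.4% were lost at up to 1 kb from the nearest other retained region, 24.1% at 25 to 50 kb and 24.9% at 50 to 100 kb. It was 21.5% of the 1557 regions at 100 to 250 kb and 19.3% of the 818 beyond 250 kb. CuNZ@Gel replicate 1 lacked 30.1%, 27.4% and 25.8% in the last 3 distance groups, and CuNZ@Gel replicate 2 lacked 38.3%, 35.5% and 34.8%. The smallest fold group beyond 250 kb held 57 regions. Without this weighting the order differed: 17.3% of the 9218 regions at up to 1 kb were lost, 30.6% at 1 to 5 kb and 18.5% beyond 250 kb. The regions at up to 1 kb had the highest median fold, 6.16.

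**Figure D4:**
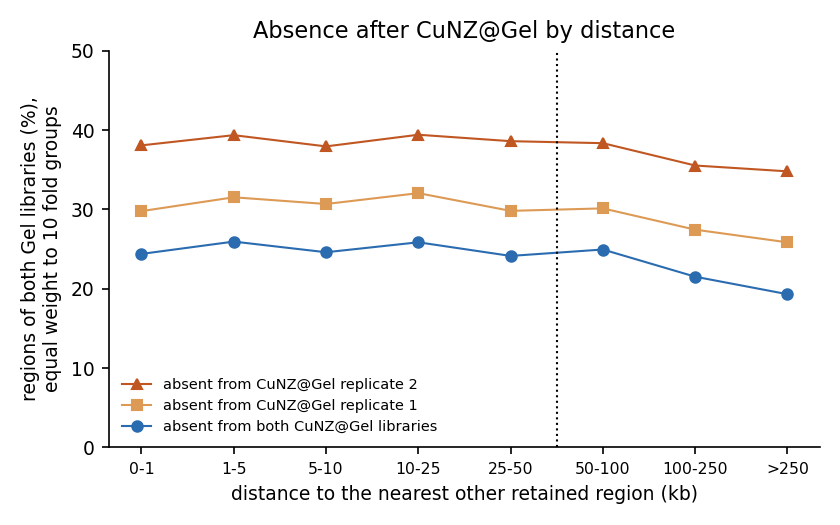
Share of the regions of both Gel libraries absent from CuNZ@Gel (y axis, %), with equal weight to 10 fold groups, against the distance to the nearest other retained region in kb (x axis); the dotted line marks 50 kb. The share absent from both CuNZ@Gel libraries stays between 24.1% and 25.9% up to 100 kb and is 19.3% beyond 250 kb.

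Isolated peaks of every kind were more numerous in both Gel libraries than in both CuNZ@Gel libraries. A peak was called isolated when its region was not retained and lay over 50 kb from every retained region, a definition that treats the groups alike. There were 4687 isolated peaks in Gel replicate 1, 5069 in Gel replicate 2, 2066 in CuNZ@Gel replicate 1 and 1256 in CuNZ@Gel replicate 2. The whole lists held 58612 and 60483 peaks in Gel and 40075 and 34693 in CuNZ@Gel, so total peaks did not overlap between the groups. Group means of isolated peaks were 4878 ± 270.1 and 1661 ± 573 (SD, n = 2), so that CuNZ@Gel had 34.1% of the Gel number. As a share of all peaks these were 7.997% and 8.38% in Gel and 5.16% and 3.62% in CuNZ@Gel. The groups did not overlap in either measure, with an exact two-sided permutation p of 0.333 for each, the smallest that 6 assignments of 4 libraries can give. The 1185 members add peaks to both Gel counts and to neither CuNZ@Gel count. These values and their p are therefore not independent of how the members were chosen and lend the members no support. A longer list has more peaks outside retained regions by construction: with all lists cut to 34693 peaks the shares were 5.76% and 6.02% in Gel and 5.27% and 5.06% in CuNZ@Gel.

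Most isolated regions were seen in 1 library. Of 8860 isolated regions, 4523 had a peak in 1 Gel library and no other, and 1344 in 1 CuNZ@Gel library and no other. The 1185 members were 13.4% of them, 1040 regions had both Gel libraries and 1 CuNZ@Gel library, and the mirror case, both CuNZ@Gel libraries and no Gel library, occurred in 52. With lists of equal length the members numbered 392 and the mirror case 138, and 10.5% of all regions of both Gel libraries were lost.

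**Figure D5:**
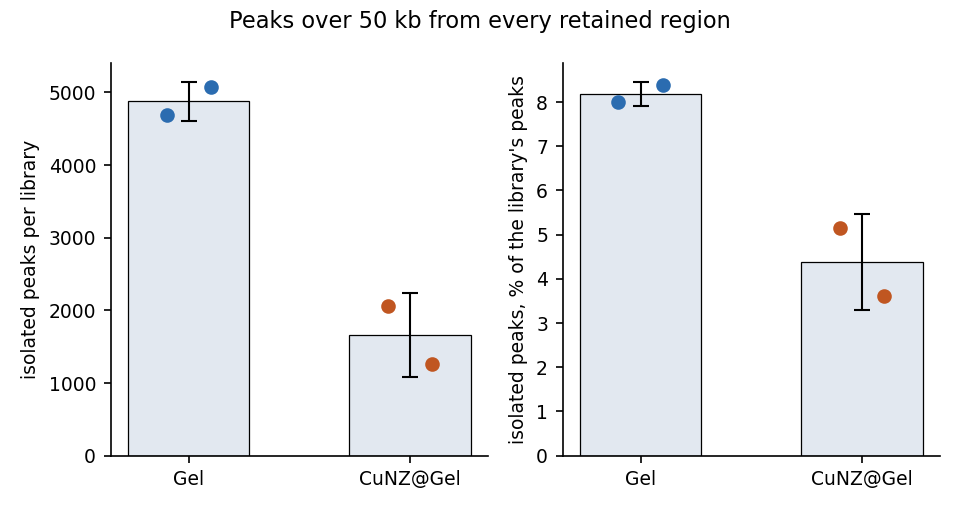
Isolated peaks per library (left) and as a percentage of the library's peaks (right) for Gel and CuNZ@Gel; points are libraries, bars the mean and error bars the SD of 2 libraries. Both Gel libraries, at 4687 and 5069 peaks, lie above both CuNZ@Gel libraries, at 2066 and 1256.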

How the data were processed

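The 4 peak lists of the immunoprecipitated libraries were used. The 4 input libraries and the 2 group lists were not used here. The tools named in the submitters' processing notes are MACS2 2.2.8, SAMtools 1.17, deepTools 3.5.6 and fastp, with build GRCm39. Which aligner and which calling options were used is not given in the sources used here. Each peak of the deposited lists has a score, a fold enrichment ratio, a −log10 p and a −log10 q, all the authors' own values. There is 1 list per library. Per the labels' protocols, fixation took 10 min in 1% formaldehyde, and sheared fragments measured 150 to 350 bp.

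Peaks on chromosomes 1 to 19, X and Y were merged (Python 3.11.15, pandas 2.3.3). Distances run between region edges. Summit fragments and background were solved from each deposited fold and p, assuming fold = (fragments + 1) / (background + 1) and a Poisson tail, at a relative tolerance of 0.0001. This succeeded for 99.7% to 99.994% of peaks, and for all members, and was tested on simulated data. Gel fold was grouped into 10 equal groups. Positions are 1-based. The results planned on genes and sequence were left out, because the gene table given is of another build, GRCm38. Members, lists and rules were chosen with earlier results of these data known. Named regions are the 10 strongest, 5 farthest and 5 widest members, 3 on each side of 50 kb, and the 3 runs with most members. The p-values are the smallest the design can give, so they are set by the number of libraries. They do not measure the spread between libraries, which may be technical. No read totals are in the lists, so intervals cover counting error only. The alternatives varied distance, threshold, list length, overlap, strength measure, grouping and library.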

Additional observations from a re-analysis of the deposited data

Results flagged for a closer look

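Unplaced scaffolds entered none of the comparisons. They held 83 regions with peaks in both Gel libraries, of which 17 lacked a peak in both CuNZ@Gel libraries, or 20.5%, near the 24.9% on the chromosomes. They are given because they are a signal outside the comparisons, above a count of 0, and not because the share stands out. Of the 17, 1 lay on a scaffold without a retained region or over 50 kb from one. With 2 libraries a group, single outlying libraries could not be checked for.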

How the results depend on the processing

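The share lost was lower in far than in nearer regions at like Gel fold in every setting run, with a difference of -2.09 points as reported. The difference was -1.75 with far over 25 kb, -4.35 over 100 kb and -5.47 over 250 kb, -2.40 at a −log10 q of at least 2, -0.990 with equal list length, -4.88 with strength by covered width, and -3.28 with isolation from other regions of both Gel libraries, which uses no CuNZ@Gel value. Without 1 library it ranged from -2.27 to -1.42. It was between -2.25 and -1.81 in the remaining settings, including regions callable at the depth of CuNZ@Gel replicate 2. The depth, background, autosome, lower-fold and 250 kb settings were chosen after seeing the data.

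The number of isolated lost regions was 2284 with far over 25 kb, 493 over 100 kb and 392 with equal list length. It was 2949 where a library counted only with at least 50% of a region covered. That rule lets in regions with a short CuNZ@Gel peak, and it also narrows which regions count as retained. The share of each effect was not tested. Without Gel replicate 1 or 2 the number of members was 3624 or 3265, since a lone library counts its unshared peaks. Without CuNZ@Gel replicate 1 or 2 it was 1744 or 1177. Of 19 named members, 10 to 19 stayed members over these settings.

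The members add peaks to the Gel counts and to neither CuNZ@Gel count, so the direction here is partly set by how they were chosen. List length also bears on it. Isolated peaks were fewer in CuNZ@Gel in every setting run: -3217 as reported and -251 with equal list length, and as a share -3.80 and -0.723 points. Without 1 library these were -3363 to -2219 peaks and -4.43 to -2.87 points. Permuted within same-numbered pairs, as a replicate block, the exact permutation p was 0.5, the smallest that 2 pairs can give, and the values were -3217 and -3.80. Nothing known shows that equal numbers mark paired libraries. The alternatives for genes and sequence composition were not run.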
